A study of Mus musculus with 1989 samples.

Results

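The genes described here are Ikzf1, Ikzf2, Ikzf3 and Ikzf5, which encode the Ikaros family proteins Ikaros, Helios, Aiolos and Pegasus. They were chosen by name, as 4 of the 8846 genes of a single-cell RNA-seq (scRNA-seq) table, and, in a single-cell ATAC-seq (scATAC-seq) table, as the 180 of 138317 peaks whose centers lie between 10 kb before each gene and its end. Of those 180 peaks, 43 do not overlap one another, out of 62552 such peaks genome-wide, and these 43 carry the openness values below. The rule itself uses names and positions and no measured value.

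The cells came from the thymus of male C57BL/6 mice at 7 weeks of age, with no treatment named in the labels, to follow how thymocytes develop. RNA was measured in 1993 cells of 1 library of thymus cells. Chromatin accessibility was measured with the Tn5 transposase in 1626 single cells used here: 182 sorted as double negative (DN), 125 as CD4 and CD8 double positive (DP), 119 as CD4 single positive, 116 as CD8 single positive and 1084 total thymocytes. The total thymocytes fall in 36 label groups by the first number of their labels, whose meaning the labels do not give. The labels name no animal, and the RNA library and each sort therefore count as 1 sample. No test between conditions was possible, and every interval given is an exact 95% interval that covers counting error only.

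Ikaros family proteins are zinc finger transcription factors that pair with one another through C-terminal fingers and recruit the NuRD remodeling and deacetylase complex. Ikaros is required for normal T cell development, and its loss in thymocytes leads to leukemia. Helios marks regulatory T cells and thymocytes that received a strong T cell receptor (TCR) signal, Aiolos is best known from lymphocyte maturation and Th17 cells, and Pegasus is a more distant member that binds another sequence.

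RNA values are given in steps, where a step is the rank of a gene's value among the distinct non-zero values of the cell. Steps stand in for molecule counts, which quantile normalization had replaced, and a level is the number of steps per 10000 steps of a class of cells. The 17 clusters of the library were called DN-like (78 cells), immature single positive (ISP)-like (314), DP blast (DPbla)-like (339), DP rearranging (DPre)-like (497), DP under selection (DPsel)-like (331), CD4sp-like (152), CD8sp-like (146), nonconventional lymphocyte (NCL)-like (30) and antigen presenting cell (APC)-like (35) from marker genes. A cluster of 71 cells led by Tnfrsf9 and Tnfrsf4, which encode costimulatory TNF receptors, stayed unnamed and is called the TNF receptor cluster. Its marker score was highest for CD4sp-like (0.432) and then DPsel-like (0.279), but its 10 leading genes held 3 genes of the strong TCR signal list and no CD4sp-like marker. None of the 4 genes was used to form the clusters. Cell classes rebuilt in this way can differ from those of the study, and 1 ISP-like cluster of 147 cells scored close to DPbla-like (0.289 against 0.261).

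The classes differed in depth, with a median of 1912 steps per cell in the TNF receptor cluster and 7366.5 in the ISP-like cells, so shares of cells are compared between classes after thinning each cell to 1356 steps unless said otherwise. For 5 measured myeloid and dendritic genes the summed level was 51.5 in APC-like cells and 1.60 to 11.6 in the other classes. In the sorted cells, openness at Cd8a was 0.899 and 0.606 counts per 10000 in the DP and CD8 sorts against 0.253 and 0.179 in the DN and CD4 sorts. Rag1 openness was 0.836 in the DP sort, 0.425 in CD8, 0.216 in DN and 0 of 558091 counts in CD4 (upper bound 0.0661). Cd4, Il2ra and Ptcra did not separate the sorts as labelled, with Il2ra at 0.992 in the DN sort and 1.51 in the DP sort.

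Ikaros, the founding member, was detected in every class. Over all cells Ikzf1 had 2720 steps in 1356 of 1993 cells, a level of 3.54. DN-like cells had a level of 2.74 (2.20 to 3.38), ISP-like cells 2.87 (2.66 to 3.09), DPbla-like cells 2.97 (2.73 to 3.22), DPre-like cells 3.56 (3.22 to 3.92) and DPsel-like cells 6.12 (5.56 to 6.73). It was 5.88 (5.11 to 6.73) in CD4sp-like, 4.63 (4.00 to 5.34) in CD8sp-like, 4.11 (3.22 to 5.17) in TNF receptor, 3.34 (2.14 to 4.98) in NCL-like and 2.01 (1.29 to 2.99) in APC-like cells. The 3 highest classes were thus those at and after selection, and the intervals of DPsel-like and CD4sp-like cells lay above those of all classes before selection.

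Between DPre-like and DPsel-like cells Ikzf1 was higher by 0.78 on the log2 scale (0.58 to 0.98), short of the 2-fold that 6.39% of 7838 genes passed upward and 7.29% downward. The increase was uneven within the DPsel-like class, which was made of 2 clusters. The cluster led by Itm2a, Cd40lg and Il7r (169 cells) had an Ikzf1 level of 4.37 (3.72 to 5.11), and the cluster led by Arap2, Cd5 and Egr1 (162 cells) had 7.95 (7.04 to 8.95). Without the Cd5-led cluster the difference to DPre-like cells was 0.30 (0.02 to 0.57). CD8sp-like cells were 0.34 (0.05 to 0.63) below CD4sp-like cells. In the order of the 10 levels this was the only step between neighbors that exceeded counting error.

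The Ikzf1 locus, chr11:11685003-11772926 on the plus strand of GRCm38, held 75 peaks, of which 14 did not overlap. Openness of these 14 was 2.09 (1.83 to 2.38) counts per 10000 counts in peaks in the DN sort, 2.57 (2.14 to 3.07) in DP, 2.83 (2.41 to 3.31) in CD4 and 3.13 (2.66 to 3.67) in CD8. DN was below CD8 by 0.58 (0.28 to 0.88) on the log2 scale and differed from DP by -0.30 (-0.62 to 0.03). CD4 and CD8 together were 0.21 above DP (-0.10 to 0.52) with these 14 peaks, 0.38 (0.17 to 0.59) with all 75 and 0.37 (0.12 to 0.63) with peaks whose centers lie 1000 bp apart. The order of the sorts changed between runs of label numbers, whose meaning the labels do not give: from 4000 DP had 2.89 and CD4 2.74, and from 31000 DN had 3.65, DP 2.23 and CD4 3.21. Total thymocytes had 1.89 (1.79 to 2.00), and their label groups ran from 1.06 to 3.45 with a median of 1.84. Total thymocytes also had 66.2% of their counts near coding transcription starts, against 52.9% to 55.8% in the sorts. The part of that difference in any comparison of total thymocytes with a sort was not tested.

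The peak with the most counts at Ikzf1 in every sort was intronic, centered 41176 bp into the gene, so its 200 central bases are shown with matches to GGGAA or TTCCC, the core sequence that Ikaros and Helios are known to bind, in capitals. The window is chr11:11726080-11726279 on the plus strand and holds 1 such match.
Ikzf1 intron: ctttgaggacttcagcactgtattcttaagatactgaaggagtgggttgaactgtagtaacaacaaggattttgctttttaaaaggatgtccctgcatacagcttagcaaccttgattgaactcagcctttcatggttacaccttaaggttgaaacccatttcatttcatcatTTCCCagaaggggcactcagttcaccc

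This peak had 113 counts in the DN sort, 60 in DP, 70 in CD4 and 74 in CD8, or 1.02, 1.25, 1.25 and 1.50 per 10000. It was open in every sort, and DN was 0.42 (0.06 to 0.79) below CD4 and CD8 pooled. A further intronic peak, 56752 bp from the gene start, had 17, 7, 21 and 10 counts in the same order, with the single positive sorts 1.01 (-0.20 to 2.44) above DP. The peak 81265 bp from the start, for which Fignl1 has the nearest coding start, had 12, 1, 8 and 12 counts and was 3.18 (0.54 to 8.56) higher in the single positive sorts than in DP. Peaks within 2 kb of a start of Ikzf1 had few counts in the sorts (11, 4, 2 and 0) and 220 in total thymocytes, or 0.344 per 10000.

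Helios had the widest range of RNA levels of the 4 genes. Ikzf2 had 1939 steps in 722 of 1993 cells, a level of 2.52 overall. Before selection it was highest in DN-like cells at 2.87 (2.31 to 3.52), and it was 1.67 (1.51 to 1.84) in ISP-like, 1.06 (0.923 to 1.22) in DPbla-like and 1.20 (1.01 to 1.42) in DPre-like cells. It was 6.82 (6.22 to 7.45) in DPsel-like cells, 1.27 (0.924 to 1.69) in CD4sp-like, 3.98 (3.40 to 4.64) in CD8sp-like and 21.6 (19.5 to 23.9) in the TNF receptor cluster. NCL-like cells had 2.93 (1.81 to 4.47) and APC-like cells 0.502 (0.184 to 1.09). The TNF receptor cluster was thus above DPsel-like cells and DPsel-like above CD8sp-like cells beyond counting error, CD8sp-like and NCL-like cells did not differ beyond it (NCL-like over CD8sp-like -0.44, -1.17 to 0.22), and DN-like cells were above ISP-like cells by 0.78 on the log2 scale.

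**Figure D1:**
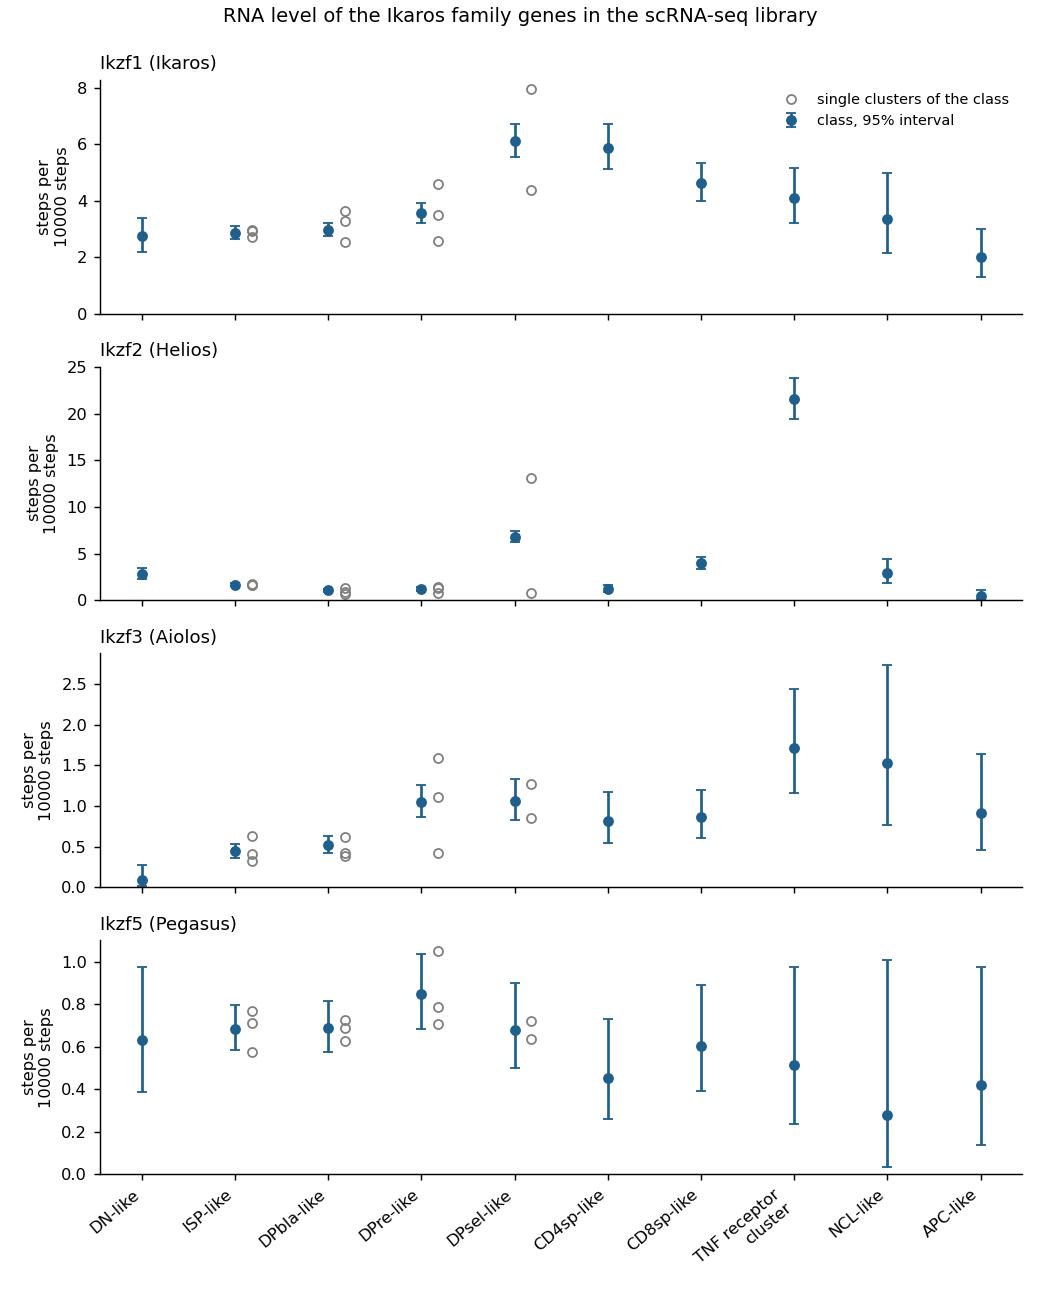
RNA level of each gene in steps per 10000 steps (vertical axis, 1 panel a gene) by class of cells (horizontal axis). Filled points with bars are classes with exact 95% intervals for counting error, and open points are the single clusters of a class that has several; for Ikzf2 the DPsel-like class of 6.82 is made of clusters at 0.775 and 13.1.

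DPsel-like cells were 2.50 (2.22 to 2.79) higher in Ikzf2 than DPre-like cells on the log2 scale, and the whole of this difference lay in the Cd5-led cluster. That cluster had a level of 13.1 (12.0 to 14.4) and the Itm2a-led cluster 0.775 (0.515 to 1.12), a 16.9-fold difference, or 4.08 on the log2 scale (3.53 to 4.69). Between these clusters 5.86% of 5615 genes were past 2-fold upward. The Itm2a-led cluster alone was below DPre-like cells by 0.63 (0.04 to 1.28), so that the sign turns without the Cd5-led cluster. The TNF receptor cluster was 27.8-fold above the Itm2a-led cluster (log2 4.80, 4.24 to 5.41), where 5.37% of 4807 genes were past 2-fold upward, and 0.72 (0.52 to 0.92) above the Cd5-led cluster. Ikzf2 was among the leading genes of both the Cd5-led and the TNF receptor clusters although it was left out when they were formed.

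Together the Cd5-led and TNF receptor clusters were 233 cells, 11.7% of the library, and held 42.9% of the Ikzf2 steps. The same cells held 12.8% of the Ikzf1 steps, 14.2% of Ikzf3 and 5.95% of Ikzf5. Of the lists of other cells, the 5 myeloid and dendritic genes summed to 1.45 in the Cd5-led, 2.97 in the TNF receptor and 2.71 in the Itm2a-led cluster. Erythroid and stromal genes summed to 1.53 in the Cd5-led, 0.342 in the TNF receptor and 0.498 in the Itm2a-led cluster, with the first raised through Hbb-bt and Hbb-bs, and their part in the result was not tested.

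Before thinning, Ikzf2 was unevenly spread over the cells of the clusters where it was abundant. At least 3 steps were found in 37 of 71 cells of the TNF receptor cluster and 60 of 162 of the Cd5-led cluster, while 22 and 46 cells had none. Cells with at least 3 steps held 95.8% and 81.3% of the Ikzf2 steps of these clusters. The highest cell had 24 steps in the TNF receptor cluster and 17 in the Cd5-led cluster. By contrast 4 of 497 DPre-like cells, 2 of 169 Itm2a-led cells and 4 of 152 CD4sp-like cells had at least 3 steps. In CD8sp-like cells 18 of 146 had at least 3 steps, and these held 72.1% of the class's Ikzf2. DN-like cells had 14 of 78 and ISP-like cells 60 of 314, but both classes are deeper.

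**Figure D2:**
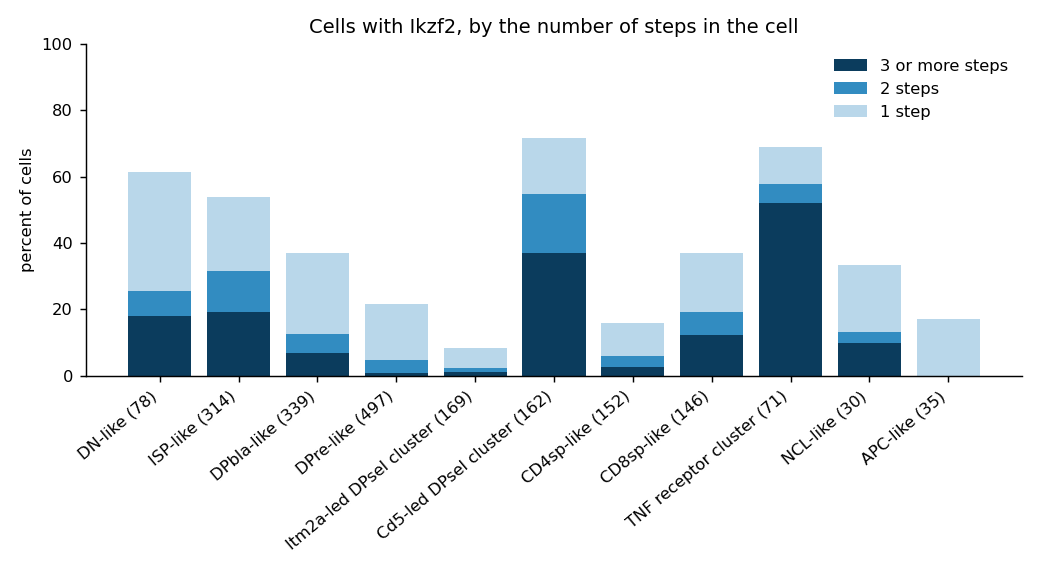
Percent of cells (vertical axis) with 1, 2 or at least 3 steps of Ikzf2 in each class or DPsel-like cluster (horizontal axis, number of cells in brackets), before thinning. The TNF receptor cluster has at least 3 steps in 52.1% of cells and the Cd5-led cluster in 37.0%, against 1.18% in the Itm2a-led cluster.

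After thinning to equal depth, Ikzf2 was detected in 45 of 71 TNF receptor cells (63.4%, 51.1 to 74.5%) and 109 of 162 Cd5-led cells (67.3%, 59.5 to 74.4%). It was detected in 38 of 146 CD8sp-like cells (26.0%), 22 of 78 DN-like cells (28.2%), 76 of 497 DPre-like cells (15.3%), 14 of 152 CD4sp-like cells (9.21%) and 12 of 169 Itm2a-led cells (7.10%). APC-like cells, with a median depth of 2412 steps against 1888 in the Cd5-led cluster, had 3 of 35 (8.57%, 1.80 to 23.1%). That interval is wide and holds the shares of DPre-like, CD4sp-like and Itm2a-led cells, while the level of APC-like cells was 1.33 (0.10 to 2.86) below that of CD4sp-like cells on the log2 scale.

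Cd5-led cells with and without Ikzf2 were compared for the 20 genes of the strong TCR signal list. The share of cells was higher with Ikzf2 for 13 genes, lower for 3, and 4 were found in neither group, where 47.1% of 8389 detected genes were higher and 52.7% lower. The same split gave 13 higher and 4 lower in the TNF receptor cluster (53.6% of all genes higher), 15 and 4 in CD8sp-like cells (45.2%) and 7 and 11 in the Itm2a-led cluster (38.5%). Some genes in these tallies rest on few cells, such as Tnfrsf9 in the Cd5-led cluster, found in 2 cells with Ikzf2 and 0 without. In the Cd5-led and TNF receptor clusters the cells with Ikzf2 are the larger group, in which a rarely detected gene is more readily found. The shares over all detected genes hold genes of every abundance and are therefore not a like background. With every cell thinned, Cd5, a surface receptor whose level follows TCR signal strength, was detected in 66.1% (56.4 to 74.9%) of the 109 cells with Ikzf2 and 43.4% (29.8 to 57.7%) of the 53 without. The early response factor Egr1 was detected in 26.6% (18.6 to 35.9%) against 9.43% (3.13 to 20.7%), and Nr4a1, another early response factor, in 16.5% (10.1 to 24.8%) against 5.66% (1.18 to 15.7%). Outside the list, Ikzf3 was found in 21.1% (13.9 to 30.0%) against 5.66% (1.18 to 15.7%) and Ikzf1 in 72.5% against 60.4%. The inhibitory receptor gene Pdcd1 (7.34% against 9.43%) and the proapoptotic gene Bcl2l11 (7.34% against 7.55%) did not go the same way, and Itm2a was at 40.4% against 54.7%. The intervals of each of these pairs overlap, the cells share 1 library, and cells with Ikzf2 were shallower before thinning (median 1880 steps) than those without, so these shares are a description. In the other 3 groups compared, cells with Ikzf2 were the deeper ones, with a median of 2715.5 against 2344 steps in CD8sp-like cells.

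**Figure D3:**
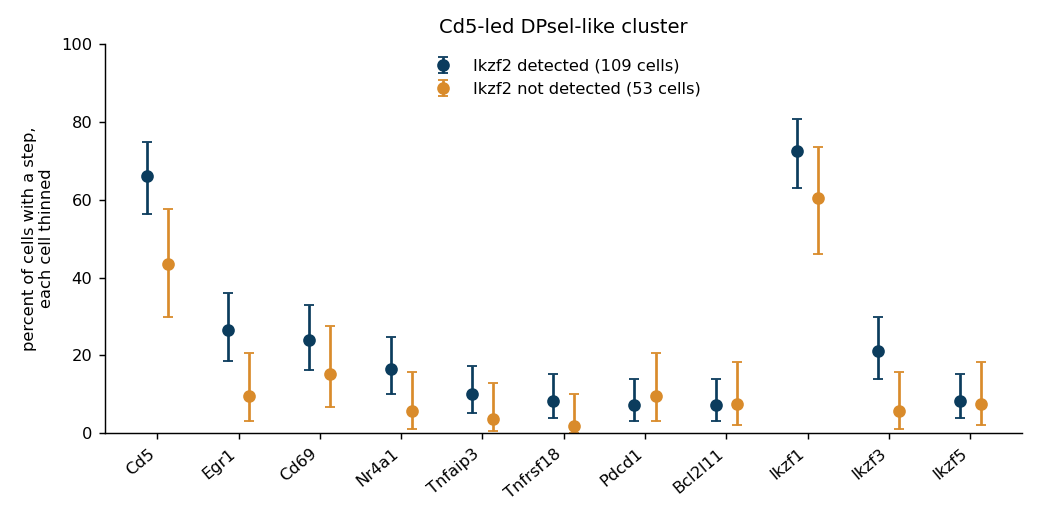
Percent of Cd5-led DPsel-like cells with a step of each gene (vertical axis) after thinning, for 109 cells with and 53 cells without Ikzf2, with exact 95% intervals. Cd5, Egr1, Nr4a1 and Ikzf3 sit higher in cells with Ikzf2, by point estimates of 66.1% against 43.4% for Cd5, and Pdcd1 and Bcl2l11 do not.

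In the TNF receptor cluster the split was 45 cells with and 26 without Ikzf2. Tnfrsf9 was detected in 35.6% and 15.4% of them, Tnfrsf18 in 51.1% and 42.3%, Cd69 in 17.8% and 3.85%, and Cd5 in 40.0% and 50.0%. Foxp3, the defining factor of regulatory T cells, was detected in 2 and 0 cells, and its level in the whole cluster rested on 4 steps. Ikzf4, which encodes the family member Eos and is not among the 4 genes, had 72 steps in all and a level of 1.26 in this cluster. CD8sp-like cells exceeded CD4sp-like cells in Ikzf2 by 1.65 (1.17 to 2.16) on the log2 scale, but with the TNF receptor cluster counted as CD4sp-like they were 1.00 (0.74 to 1.27) lower. Without that cluster CD4sp-like and DPre-like cells differed by 0.07 (-0.45 to 0.57).

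The Ikzf2 locus, chr1:69531214-69687245 on the minus strand, held 41 peaks, of which 14 did not overlap. A peak 4977 bp before the gene start and an intronic peak 6065 bp after it are shown by their 200 central bases because both were past 2-fold higher in DN than in DP. They lie at chr1:69692123-69692322 and chr1:69681081-69681280 of GRCm38, are printed on the plus strand, and hold 2 matches and 0 matches to GGGAA or TTCCC, again in capitals.
Ikzf2 upstream: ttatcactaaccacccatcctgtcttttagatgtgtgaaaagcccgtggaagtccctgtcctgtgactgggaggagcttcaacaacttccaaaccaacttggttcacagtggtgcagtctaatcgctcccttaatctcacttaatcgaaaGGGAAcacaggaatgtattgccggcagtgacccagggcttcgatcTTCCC
Ikzf2 intron: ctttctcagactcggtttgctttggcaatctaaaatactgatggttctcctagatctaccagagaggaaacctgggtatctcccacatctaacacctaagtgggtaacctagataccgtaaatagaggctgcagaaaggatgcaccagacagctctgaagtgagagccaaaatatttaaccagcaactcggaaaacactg

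Openness of the 14 peaks was 1.11 (0.922 to 1.32) in the DN sort from 123 counts, 0.293 (0.160 to 0.491) in DP from 14, 0.735 (0.527 to 0.997) in CD4 from 41 and 1.27 (0.979 to 1.63) in CD8 from 63. DP was the lowest sort, and its interval did not reach that of any other. DN was 1.92 (1.12 to 2.84) above DP on the log2 scale, CD4 1.33 (0.42 to 2.32), and CD4 and CD8 pooled 1.75 (0.94 to 2.68). CD8 was 0.79 (0.20 to 1.40) above CD4. A count in the locus was found in 36.3% of DN, 10.4% of DP, 21.8% of CD4 and 31.0% of CD8 cells.

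DP was also lowest by runs of label numbers, while the order of the other sorts was not the same in every run. The 3 runs of DP cells had 0.186, 0.289 and 0.338 counts per 10000, all below the 5 DN runs (0.541 to 1.53), the 2 CD4 runs (0.708 and 0.849) and the 2 CD8 runs (0.956 for the lower). Total thymocytes had 0.306 (0.265 to 0.352), and their 36 label groups ran from 0.108 to 0.945.

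**Figure D4:**
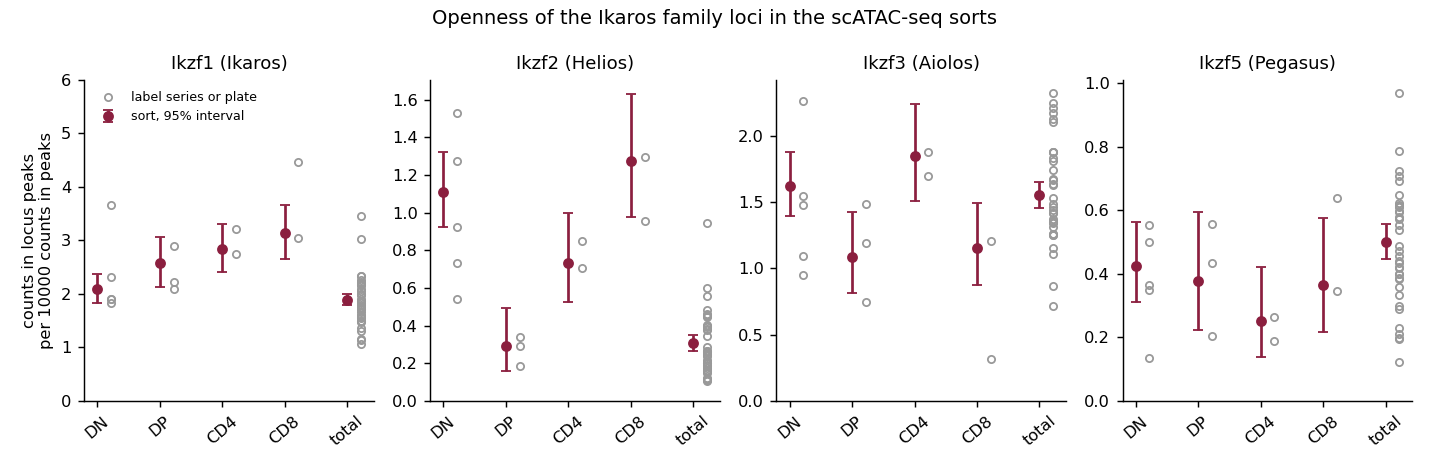
Counts in the non-overlapping peaks of each locus per 10000 counts in peaks (vertical axis) by sort (horizontal axis, total being total thymocytes). Filled points carry exact 95% intervals for counting error. Open points are runs of label numbers, or the label groups of total thymocytes (plate in the legend). At Ikzf2 the DP sort (0.293) lies below DN (1.11), CD4 (0.735) and CD8 (1.27).

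The intronic peak at 6065 bp had 29 counts in DN, 2 in DP, 4 in CD4 and 16 in CD8. It was 2.64 (0.66 to 5.76) higher in DN than in DP and 2.17 (0.54 to 4.21) higher in CD8 than in CD4. The upstream peak had 22, 2, 5 and 5 counts, and the promoter peak, 325 bp before the start, 21, 1, 5 and 4, with DN above DP by 2.25 (0.22 to 5.38) and 3.18 (0.54 to 8.55). A distal intronic peak at 142879 bp had 1, 0, 1 and 9 counts. Other peaks of the locus were thinly covered and did not all follow CD8 over CD4: an intronic peak at 12300 bp had 4 counts in CD4 and 1 in CD8, and one at 131428 bp had 6 and 3.

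Aiolos RNA was nearly absent from DN-like cells and present afterwards. Ikzf3 had 522 steps in 434 of 1993 cells, a level of 0.680. DN-like cells had 3 steps in 3 of 78 cells, a level of 0.0945 (0.0195 to 0.276). ISP-like cells had 0.443, DPbla-like 0.516, DPre-like 1.05 (0.870 to 1.26), DPsel-like 1.06 (0.834 to 1.33), CD4sp-like 0.816 and CD8sp-like 0.869. The TNF receptor cluster had 1.71 (1.16 to 2.44), NCL-like cells 1.53 (0.765 to 2.74) and APC-like cells 0.920. The level was thus higher at each of ISP-like and DPre-like cells than in the class before it.

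ISP-like cells were 2.23 (0.64 to 4.53) above DN-like cells on the log2 scale, and DPre-like cells 1.03 (0.63 to 1.43) above DPbla-like and 3.48 (1.89 to 5.77) above DN-like cells, a comparison in which 9.11% of 7528 genes were past 2-fold upward and 9.82% downward. DPsel-like and DPre-like cells differed by 0.01 (-0.43 to 0.44), a range that leaves room for a change of that size in either direction. The TNF receptor cluster was 1.00 (0.22 to 1.77) above the Itm2a-led cluster. Within DPre-like cells the cluster with Mki67 in 43.3% of cells had 0.422, and the clusters with less Mki67, a proliferation marker, had 1.11 and 1.59. No class had more than 3 cells with at least 3 steps of Ikzf3.

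The Ikzf3 locus, chr11:98464902-98546031 on the minus strand, held 60 peaks, of which 13 did not overlap. The intronic peak 75665 bp from the gene start, near its 3′ end, was the 1 measured peak past 2-fold between DN and DP and is shown by its 200 central bases at chr11:98470267-98470466, plus strand, which hold no match to GGGAA or TTCCC.
Ikzf3 intron: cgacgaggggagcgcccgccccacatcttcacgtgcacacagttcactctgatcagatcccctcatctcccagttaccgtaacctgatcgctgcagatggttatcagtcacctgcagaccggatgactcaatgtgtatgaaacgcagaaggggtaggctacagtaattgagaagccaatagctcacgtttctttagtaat

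Openness was 1.62 in DN from 180 counts, 1.09 in DP from 52, 1.85 in CD4 from 103 and 1.15 in CD8 from 57. CD4 was 0.76 (0.27 to 1.27) above DP and CD8 was 0.68 (0.20 to 1.17) below CD4, while CD8 and DP differed by 0.08. DN was 0.58 (0.13 to 1.05) above DP, although DN-like cells had the lowest Ikzf3 RNA. CD4 was above DP by point estimate in both runs of label numbers they share, with intervals that overlap. From 4000 CD4 had 1.88 (1.50 to 2.33) against 1.19 (0.821 to 1.67) in DP. From 31000 CD4 had 1.70 (1.01 to 2.68) from 18 counts against 1.49 (0.642 to 2.93) from 8 in DP. The other differences to DP moved with the peaks and cells used. With all 60 peaks that of DN was 0.21 (-0.06 to 0.49) and that of CD4 and CD8 pooled 0.27 (0.004 to 0.55). With peaks whose centers lie 1000 bp apart they were 0.14 (-0.21 to 0.50) and 0.10 (-0.25 to 0.47), the pooled one being 0.48 (0.02 to 0.96) with the 13 peaks. In the run of label numbers from 4000 they were 0.31 (-0.44 to 1.06) and 0.37 (-0.19 to 0.96), and in the run from 31000 upward, which holds 29 DP cells, -0.07 and -0.11. The 60 peaks and those 1000 bp apart overlap, and counts shared between such peaks would make their intervals too narrow.

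The intronic peak at 75665 bp had 54 counts in DN, 9 in DP, 19 in CD4 and 13 in CD8, so that DN was 1.37 (0.34 to 2.58) above DP. A peak upstream of the gene had 54, 16, 16 and 9 counts, and its nearest coding start, 8 bp away, is that of Zpbp2. The intronic peak at 58103 bp had 7, 1, 14 and 2 counts, most of them in CD4 cells. The peak at the gene start, centered in an exon 100 bp from it, had 9, 5, 6 and 7 counts in the sorts and 181 in total thymocytes.

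**Figure D5:**
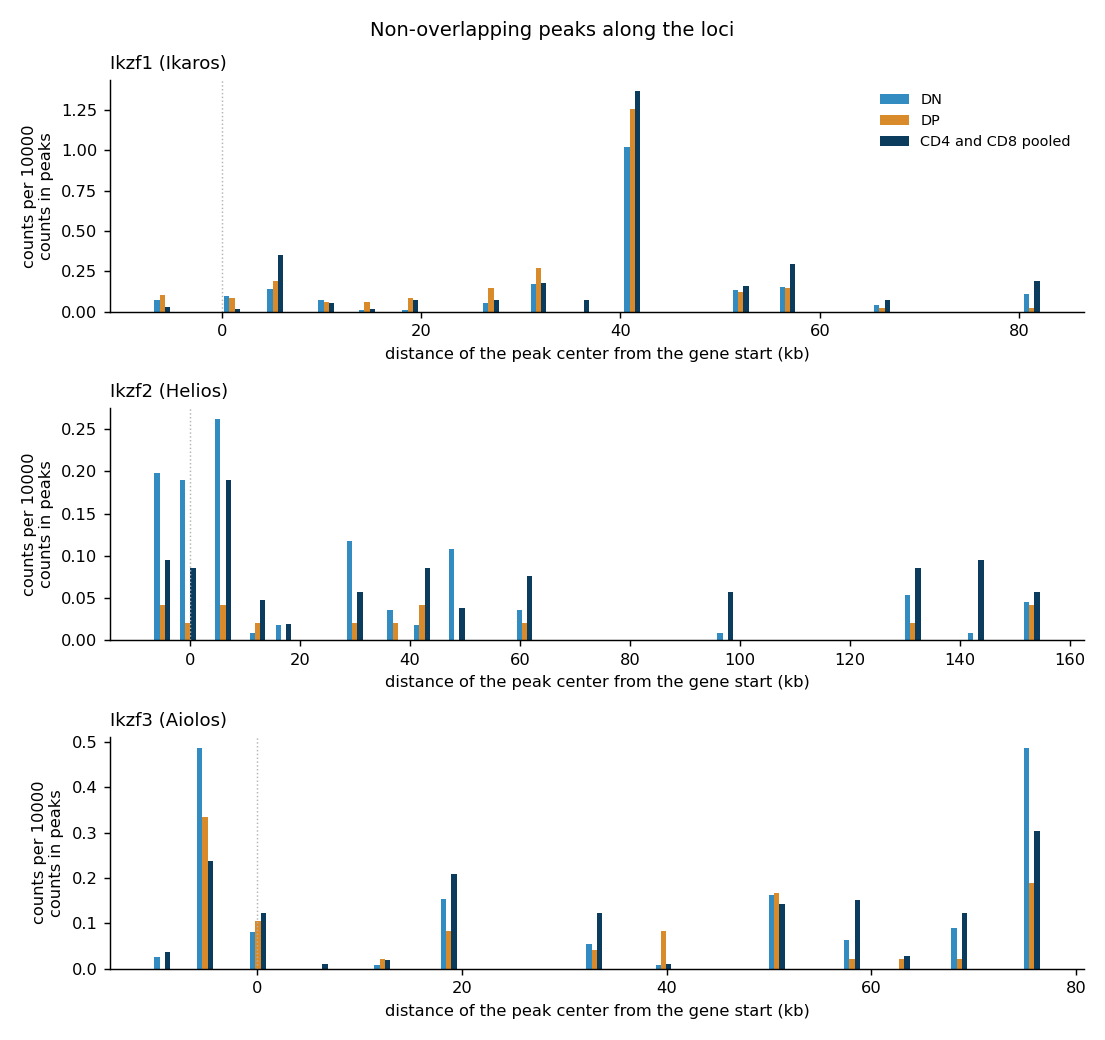
Counts per 10000 counts in peaks (vertical axis) of each non-overlapping peak, by the distance of its center from the gene start in kb (horizontal axis), in the DN sort, the DP sort and the CD4 and CD8 sorts pooled. At Ikzf1 the tallest bars stand at the intronic peak (1.02 in DN, 1.25 in DP), and at Ikzf2 the DP bars stay at or below 0.0418.

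Pegasus RNA had similar levels in the classes. Ikzf5 had 521 steps in 423 of 1993 cells, a level of 0.678. DN-like cells had a level of 0.630, ISP-like cells 0.683, DPbla-like cells 0.687, DPre-like cells 0.847 (0.685 to 1.03) and DPsel-like cells 0.679. It was 0.450 (0.257 to 0.731) in CD4sp-like, 0.603 in CD8sp-like, 0.514 in TNF receptor, 0.279 in NCL-like and 0.418 in APC-like cells. No pair of neighbors in this order differed beyond counting error. CD4sp-like cells were 0.91 (0.14 to 1.78) below DPre-like cells, and DPsel-like cells differed from DPre-like cells by -0.32 (-0.85 to 0.20).

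The Ikzf5 locus, chr7:131388652-131410521 on the minus strand, held 4 peaks, of which 2 did not overlap. Its promoter peak, 65 bp before the gene start, lies 15 bp from the start of Acadsb, a gene of acyl-CoA metabolism, so its counts cannot be assigned to either gene. It had 47 counts in DN, 18 in DP, 14 in CD4 and 18 in CD8, and 310 in total thymocytes. Openness of the locus was 0.424, 0.376, 0.251 and 0.364 in the sorts, and the single positive sorts differed from DP by -0.31 (-1.18 to 0.61).

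Of the 43 peaks at the 4 loci, 12 had at least 20 counts in the single positive and DP sorts together. Of these, 4 were past 2-fold higher by their point estimate in the single positive sorts (2 at Ikzf1, 1 each at Ikzf2 and Ikzf3) and 0 were lower, where genome-wide 16.0% of 13455 peaks were higher and 10.6% lower. The intervals left out 0 for 2 of these 4, the peak 81265 bp from the Ikzf1 start and the peak 6065 bp from the Ikzf2 start. Between DN and DP 4 of 13 measured peaks were higher in DN, 3 of them at Ikzf2, and 0 were lower, against 13.0% higher and 11.7% lower of 13613. Between CD8 and CD4 1 of 9, the Ikzf2 intronic peak, was higher and 0 lower, against 9.59% and 12.1% of 9707.

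The core motif GGGAA or its reverse complement was in 20 of the 43 central windows of 200 bases, 6 at Ikzf1, 7 at Ikzf2, 5 at Ikzf3 and 2 at Ikzf5. Over all 62552 windows its share was 42.2%. The Runx core TGTGGT was in 10 of 43 (22.7% of all windows), the Tcf1 and Lef1 core CTTTGA in 9 of 43 (15.0%) and the Ets core CCGGAA in 2 of 43 (7.60%), each on either strand. Of these 3, only CTTTGA occurs in a printed window, once, in the Ikzf1 intron. These matches are a description of the sequence.

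Without thinning, 302 of 1993 cells had none of the 4 genes and 293 had 3 or 4. In the thinned Cd5-led cluster Ikzf1 and Ikzf2 were found together in 79 cells, where the product of their shares gives 74.7, and Ikzf2 and Ikzf3 in 23, where it gives 17.5. Over all cells Ikzf1 and Ikzf2 were together in 208 against 177 and Ikzf1 and Ikzf5 in 66 against 67.2. Within the 10 classes the counts went both ways: Ikzf1 and Ikzf2 were above the product in 3 classes (in 27 ISP-like cells against 19.0) and below it in 7 (in 15 CD8sp-like cells against 18.7). Over the 17 clusters, which share 1 library and differ in depth, Pearson's r of log2 levels was 0.51 for Ikzf1 and Ikzf2, 0.48 for Ikzf1 and Ikzf3 and 0.37 for Ikzf2 and Ikzf3. With Ikzf5 it was 0.03 for Ikzf1, -0.20 for Ikzf2 and -0.24 for Ikzf3.

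Among 7609 genes, the patterns most like Ikzf1 over the clusters were those of Sptlc2 (r = 0.889), Cxx1b (0.872) and Lef1 (0.865), the last a T lineage transcription factor. Those most like Ikzf2 were Pdcd1 (0.875), Appbp2 (0.832) and Zfp213 (0.764). Ikzf3 was closest to Dnajc1 (0.895), Ube2j1 (0.868) and Cflar (0.866), an inhibitor of death receptor signaling, and Ikzf5 to Tcf7 (0.895), which encodes Tcf1, Zfp131 (0.890) and Mgst3 (0.868).

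Most partners of the family stayed within 2-fold at selection. Of 14 NuRD genes measured between DPre-like and DPsel-like cells, 1 was past 2-fold higher and 0 lower, near the 6.39% and 7.29% of all genes tested, with a median of 0.09 against -0.01. The one was Chd3, a remodeling ATPase of NuRD, at 4.26 against 0.481 (log2 3.14, 2.72 to 3.59), while its paralog Chd4 was at 3.00 against 2.99. Chd3 was 1.53 (1.14 to 1.92) lower in the Cd5-led than in the Itm2a-led cluster, the opposite of Ikzf2. None of 12 other corepressor and SWI/SNF genes and none of 9 genes of Ikaros turnover and phosphorylation passed 2-fold, and cereblon (Crbn), the ubiquitin ligase receptor through which drugs degrade Ikaros and Aiolos, differed by 0.11 (-0.39 to 0.59). From DN-like to DPre-like cells 5 of 14 NuRD genes were lower and 0 higher, against 9.82% and 9.11% of all genes, led by Chd3 (-2.18, -2.72 to -1.64) and Mta3 (-1.93, -2.27 to -1.59).

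Genes of strong TCR signal had the most members past 2-fold at selection. Of 13 measured, 11 were past 2-fold higher in DPsel-like than in DPre-like cells and 0 lower (6.39% and 7.29% of all genes), with a median of 2.38, but Cd69, Cd5 and Egr1 of this list are also markers that named the class. Egr2 differed most (5.13, 3.19 to 8.22), then Pdcd1 (4.62, 2.65 to 7.73). Between the Cd5-led and Itm2a-led clusters, where Ikzf2 differed 16.9-fold, the list was split: of 11 measured, 2 were higher (Pdcd1 by 2.82, Tnfaip3 by 1.23) and 3 lower (Tnfrsf4 by 5.36, Tnfrsf18 by 1.41 and Gadd45b by 1.22), with a median of -0.07. Of all genes tested there, 5.86% were past 2-fold higher and 5.27% lower. Between the TNF receptor and Itm2a-led clusters 5 of 12 were higher, led by Tnfrsf9 (5.25, 3.97 to 6.90), and 3 lower, led by Egr1 (-2.18, -3.45 to -1.13). In that comparison 5.37% of all genes tested were higher and 6.70% lower.

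Of 12 genes known as bound by Ikaros in thymocytes, 1 was higher and 5 lower in DPsel-like than in DPre-like cells (6.39% and 7.29% of all genes), with a median of -0.75. Il7r, the IL-7 receptor chain, was 8.17 (5.68 to 13.49) higher, from 1 step in DPre-like cells, and the recombinase gene Rag1 was 2.34 (2.11 to 2.58) and Dntt, the terminal transferase, 2.32 (2.14 to 2.50) lower. In the Cd5-led against the Itm2a-led cluster 6 of 12 were higher (5.86% of all genes), led by Bcl6 (2.20, 0.76 to 3.96) and Cd8a (1.61, 1.34 to 1.90), and only Il7r was lower (-5.08, -6.72 to -3.83). In the TNF receptor against the Itm2a-led cluster 0 of 10 were higher and 1, Il7r, lower (5.37% and 6.70% of all genes), with a median of -0.18. From DN-like to DPre-like cells 7 were higher (9.11% of all genes), and Il7r was lower.

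All 7 measured genes of the Notch and pre-TCR stage were past 2-fold lower in DPre-like than in DN-like cells (9.82% of all genes), with a median of -2.44 against 0.00 over all genes, led by Hes1 (-6.07, -7.55 to -4.90) and Il2ra (-5.60, -6.43 to -4.87). Several of these genes are markers of the DN-like class. Over the same comparison Ikzf1 was 0.38 (0.04 to 0.73) and Ikzf3 3.48 higher, Ikzf2 1.25 (0.85 to 1.65) lower, and Ikzf5 differed by 0.43 (-0.28 to 1.20). Among T lineage factors, 6 were past 2-fold higher in DPsel-like than in DPre-like cells (6.39% of all genes), led by Id2 (3.99, 3.50 to 4.52), an inhibitor of E proteins, and Zbtb7b (3.93, 2.61 to 5.62), the factor of CD4 commitment, and Tcf12, an E protein gene, was lower (-1.10, -1.34 to -0.86). Id2 and Zbtb7b were lower in the Cd5-led than in the Itm2a-led cluster by 3.49 and 3.40, where Ikzf2 was higher.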

How the data were processed

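RNA was measured by 10x scRNA-seq in 1 library and accessibility by scATAC-seq. The authors counted RNA with Cell Ranger 1.3.1 and deposited filtered log2 values after quantile normalization across cells; 79.7% of these values are 0. Raw molecule counts were not used here, so steps are a lower bound for abundant genes. For scATAC-seq, the authors trimmed adapters, mapped reads with Bowtie2, used Picard against duplicates and MACS2 on merged cells for peak calls, and deposited counts per peak and cell over 138317 peaks of 4000 bp. The submitters' notes name GRCm38.p5 and also hg38; here 32.7% of peak centers lay within 2 kb of a GRCm38 coding start, against 14.3% after a shift of 100000 bp. In 9766 of 53103 runs of 3 overlapping peaks (18.4%) the middle one had more counts than the others together, so counts do not cover the whole width. Total counts per sort ran from 478264 to 6402950, and median counts per cell from 2571 to 5792. Not used were 362 columns of cells, 352 of them total thymocytes outside the label groups and 10 unassigned.

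Clusters were built with Seurat 5.3.0 (R 4.3.3) from 1304 variable genes (mean 0.025 to 3, dispersion at least 0.5, Ikzf2 and Ikzf3 removed, and Ikzf1 and Ikzf5 not among them), 20 principal components, 30 neighbors and resolution 2. Each cluster was named by its highest mean marker score, as ISP or DPbla only with Mki67 in at least 50% of cells, and the TNF receptor cluster was left unnamed because its 10 leading genes held strong TCR signal genes and no marker of its highest class. Doublets were not called. Levels, exact Poisson and binomial intervals and ratios were computed with Python 3.11.15 and scipy 1.17.1, tested on simulated data; intervals and limits of zero counts cover counting error only. Non-overlapping peaks were taken in the order of their counts.

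The members and lists were chosen with earlier results of these data known. Named were the 4 genes, the 3 genes per member with the highest Pearson r of log2(level + 0.1) over the clusters among genes with at least 100 steps, and up to 2 genes of a list that differed most in each direction among genes with at least 20 steps in both groups together. Where all genes past 2-fold of a list of 5 or fewer, a second gene of the same complex, or a transcript in cells with and without Ikzf2 are named beyond this rule, they were chosen after their values were seen. Sequences and annotation are from the GRCm38 reference (GENCODE vM21). Some genes of the lists are not reported here. Alternatives are given in the closing section.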

Additional observations from a re-analysis of the deposited data

How the results depend on the processing

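Of 111 values recomputed under alternatives, 97 moved by less than the interval of the value reported, 10 moved by more, and for 4 a value past counting error changed sign. The sign turned in 18 in all: 9 of the 97, of which 7 are among the 10 for Ikzf3 RNA, a difference near 0, and 5 of the 10. The alternatives for DPsel-like, DPre-like and CD4sp-like clusters and for peaks with centers 1000 bp apart were chosen after seeing the data. For RNA, DPsel-like over DPre-like, the log2 difference of Ikzf1 was 0.298 and that of Ikzf2 -0.635, a reversal, without the Cd5-led cluster, and Ikzf2 was 3.02 with the TNF receptor cluster counted as DPsel-like. Counted as CD4sp-like, that cluster turned CD8sp-like over CD4sp-like for Ikzf2 to -1.001, a reversal. The cause in each case is the cluster's own level. For openness against the DP sort, the run of label numbers from 31000 upward alone gave 0.647 for Ikzf1 and -0.105 for Ikzf3, a reversal, in the single positive sorts, and 0.230 for Ikzf1, -0.0739 for Ikzf3, a reversal, and -0.891 for Ikzf5 in DN. That setting leaves 29 DP cells. Promoter peaks alone gave -2.14 for Ikzf1 and 1.45 for Ikzf3 in the single positive sorts, and 0.246 for Ikzf1 and 3.18 for Ikzf2 in DN. With each cell weighted equally, among cells with at least 1000 counts, Ikzf1 in DN was 0.0968. In the same cells without that weighting it was -0.2885. It was -0.298 as reported, -0.609 (-1.19 to -0.05) in the run from 4000 and -0.350 (-0.66 to -0.03) with peaks by the nearest coding start. The cause of these shifts was not tested. Ikzf2 stayed above DP in every alternative, from 1.23 to 2.23 in the single positive sorts and from 1.52 to 3.18 in DN, though not beyond counting error in the run from 31000 upward for both, or at promoter peaks for the single positive sorts. Assigning peaks to the nearest coding start gave no value for Ikzf5. No paired analysis was made, because the RNA is 1 library and the labels give no animal or replicate number that pairs the sorts. Each sort has cells in the runs of label numbers from 4000 and from 31000, and comparisons within these runs are among the alternatives. Depth limits Ikzf5 and the single peaks, most of which had under 20 counts in a pair of sorts.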
